A study of Mus musculus with 4 samples.

Results

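The carbonic anhydrase genes analysed here are 10 mouse genes, Car2, Car3, Car4, Car5a, Car5b, Car8, Car9, Car12, Car14 and Car15, out of 55401 genes in the count tables. They were picked by gene symbol, through the Ensembl gene identifier. RNA-seq was done on 4 libraries: kidney and heart of C57BL/6 mice with cecal ligation puncture (CLP), without or with melatonin (MLT), 1 library for each tissue and treatment. CLP lets gut bacteria leak into the abdomen and is a mouse model of sepsis. The kidneys came from male mice aged 8 weeks and were collected 24 h after CLP; the CLP + MLT mice had drunk melatonin at 25 μg/ml for 14 days before the operation. The labels give no dose, time or age for the hearts, and it is not known from the sources used here if the RNA of a library was from 1 mouse or was pooled. The 4 in the label CLP+MLT4 is not explained, nor is it stated what the CLP mice drank. With 1 library per group, no difference below has a replicate check, and sham libraries were not analysed here.

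Carbonic anhydrases are zinc enzymes that convert CO2 and water into bicarbonate and a proton, and back. In the kidney they let the tubule reclaim bicarbonate and secrete acid, with a cytosolic enzyme inside the cells and membrane enzymes facing the tubule fluid or the interstitium. In muscle and heart, membrane enzymes help carry CO2 and acid out of the cells. Mitochondrial members supply bicarbonate to carboxylases, and Car8 belongs to the related proteins that have lost the catalytic activity.

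Between 15883057 and 22927905 reads per library were counted on genes. Genes of the mitochondrial genome took 14.8% of these counts in CLP kidney, 24.2% in CLP + MLT kidney, 31.6% in CLP heart and 36.0% in CLP + MLT heart. Levels are given as CPM, the reads of a gene in every 1000000 counted on genes, scaled with edgeR's TMM method within each tissue. Levels of different members, or of a member in the 2 tissues, are compared only as CPM per kilobase of exon, with all 4 libraries scaled together. Each log2 ratio is CLP + MLT over CLP, and the interval after it is a 95% exact Clopper-Pearson interval, which covers counting error only. A gene was counted as higher or lower when it differed at least 1.5-fold and its interval did not include 0. The tissue labels matched their markers: 11 cardiomyocyte genes summed to 35443 and 24633 CPM in the heart libraries against 13.9 and 19.7 CPM in the kidney libraries.

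In the kidney, Car2 had the highest level of the family. Car2 encodes the abundant cytosolic enzyme of tubule and intercalated cells. It stood at 97.3 CPM per kilobase in CLP kidney and 116 in CLP + MLT kidney, which was 56.2% and 50.4% of the summed level of the 10 genes. The membrane enzyme Car4 followed with 30.1 and 51.6, then Car14 with 18.6 and 30.8 and Car12 with 10.6 and 11.2 CPM per kilobase. These 4 genes kept this order in both kidney libraries, with counting intervals that did not overlap between neighbours. Below them, Car5b stood at 7.87 and 6.05 and Car15 at 3.55 and 6.41 CPM per kilobase, and their intervals overlapped in the CLP + MLT library. The lowest 4 were Car5a with 1.60 and 3.72, Car9 with 1.44 and 2.71, Car3 with 1.37 and 0.627 and Car8 with 0.643 and 1.11. Among these, Car5a, Car9 and Car3 could not be ordered in the CLP library within counting error, nor could Car5a and Car9, or Car8 and Car3, in the CLP + MLT library.

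The heart had another leading set. Car4, the membrane-anchored enzyme, led with 124 CPM per kilobase after CLP alone and 92.2 after CLP + MLT, or 67.4% and 58.4% of the summed level. Car14 came next with 39.0 and 33.1, and then the inactive Car8 with 16.5 and 24.7. Car2 reached only 3.63 and 5.60 CPM per kilobase there. The other 6 genes lay at or below 1.07 in both heart libraries, and from place 6 down, neighbouring genes overlapped in their counting intervals.

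**Figure D1:**
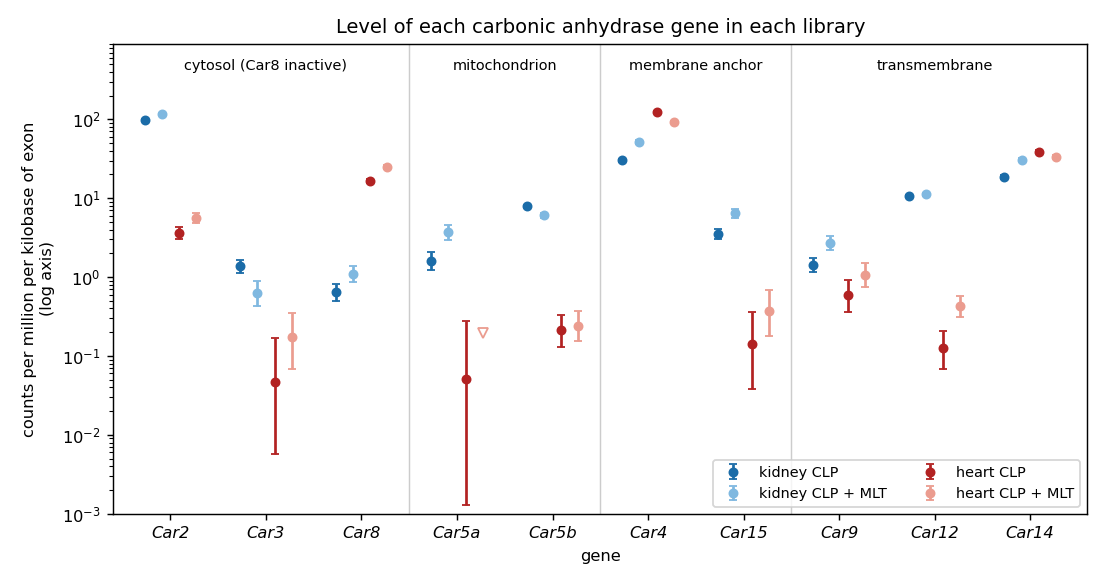
Level of each gene in CPM per kilobase of exon (log axis) in the 4 libraries, 1 point per library, with bars for the 95% exact Poisson interval of the count. The open triangle is the upper bound for Car5a in the CLP + MLT heart, where its count was 0. Car2 leads both kidney libraries at 97.3 and 116, and Car4 leads both heart libraries at 124 and 92.2.

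Car15 is read with caution in this order. Its row covers 1906 exon bases, of which 1253 are shared with Gm20518, a protein-coding gene annotated on the same strand, and a read in shared bases cannot be given to either gene alone. Over the 653 unshared bases, its kidney level would be 10.4 and 18.7 CPM per kilobase, place 5 and place 4 in the family. The ratio between libraries does not depend on the length used.

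Summed over the family, the level was 173 CPM per kilobase in the CLP kidney and 230 in the CLP + MLT kidney. The cytosolic genes Car2 and Car3 gave 98.6 and 116 of it, and the membrane-anchored genes Car4 and Car15 gave 33.6 and 58.0. The transmembrane genes Car9, Car12 and Car14 gave 30.7 and 44.7. The mitochondrial genes Car5a and Car5b summed to 9.47 and 9.77, nearly alike, while their makeup differed. In the heart the family summed to 185 and 158, with 125 and 92.5 from the membrane-anchored genes. Mitochondrial members gave only 0.263 and 0.243 there.

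**Figure D2:**
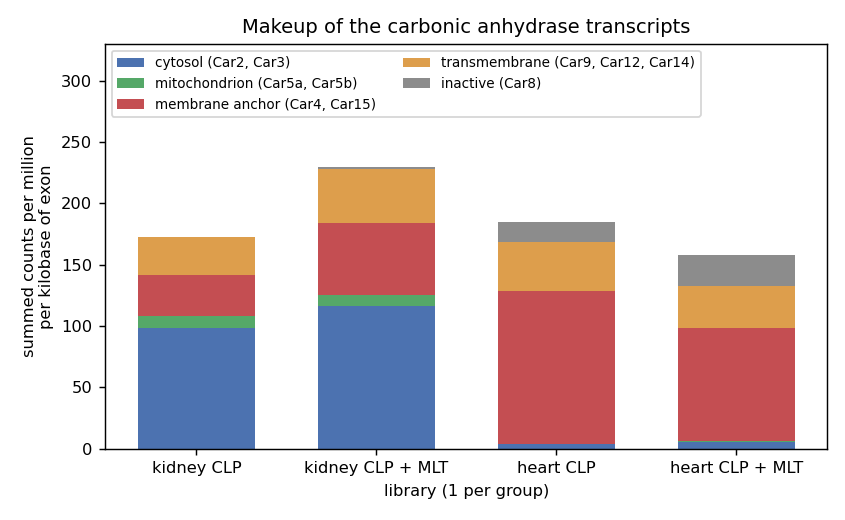
Summed CPM per kilobase of exon of the family in each library, stacked by where the protein works; the axis starts at 0 and no error is drawn because each bar is 1 library. Cytosolic members are the largest part of both kidney bars (98.6 and 116), and membrane-anchored members the largest part of both heart bars (125 and 92.5).

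Set side by side, kidney and heart differed in most members. In the CLP pair of libraries, Car12 was 83.2-fold higher in kidney, Car5b 36.4-fold, Car2 26.7-fold and Car9 2.43-fold. Car8 was 25.4-fold higher in heart, Car4 4.13-fold and Car14 2.09-fold. These 7 genes had 10 counts or more in all 4 libraries, and 4 of them were higher in kidney and 3 in heart. Over the 17419 genes with a mean of 10 counts or more in that pair, 35.7% were higher in kidney and 32.4% in heart. In the CLP + MLT pair, the same 4 genes were higher in kidney (35.0% of 16729 genes) and Car8 and Car4 were higher in heart (33.6%). Car14 was then nearly level, at 1198 counts in heart and 1354 in kidney, with a log2 ratio of kidney over heart of −0.10 (−0.22 to 0.01). The other 3 members had few heart counts, so their ratios are imprecise and are not in these counts. The shares of all genes rest on the mean of the pair, a looser filter that also keeps genes counted in 1 tissue only. They are therefore not directly comparable with the counts of members. By that looser filter these 3 members would count as higher in kidney in both pairs. In the CLP pair the log2 ratio of kidney over heart lay between 2.97 and 7.93 for Car3 on 2 heart counts, between 2.46 and 10.32 for Car5a on 1, and between 3.27 and 6.54 for Car15 on 4. In the CLP + MLT pair it lay between 0.66 and 3.30 for Car3 on 7 heart counts and between 3.21 and 5.20 for Car15 on 10. For Car5a, 86 counts in kidney stood against 0 in heart, so its interval had a lower bound of 4.23 and no upper bound.

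To ask which members differed with melatonin in the septic kidney, CLP + MLT was set against CLP. All 10 genes passed the filter, a mean of 10 counts or more in the pair of libraries. Of them, 6 were higher in the CLP + MLT library (Car5a, Car9, Car15, Car8, Car4 and Car14), 1 was lower (Car3), and Car2, Car5b and Car12 were within the limits. Over all 16932 kidney genes, 9.10% were higher and 9.02% were lower by the same rule, 18.1% in all. The median log2 ratio of the 10 genes was 0.75, against 0.0029 for all genes. These 10 genes were chosen with earlier results of these data known, which limits this comparison. Among carbonic anhydrase genes outside them, Car13 was lower (−0.75), and Car7 (−0.62) and Car11 (0.35) were not past the limits. In whole tissue, fewer cells of a type and less RNA per cell cannot be told apart.

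**Figure D3:**
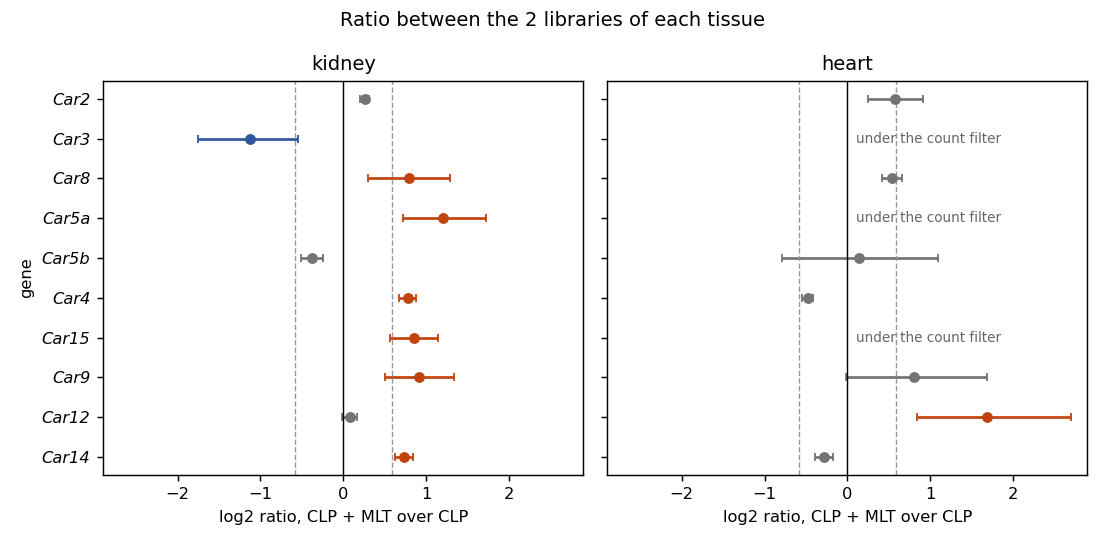
Log2 ratio of CLP + MLT over CLP for each gene in kidney and heart, with the 95% counting interval as a bar; dashed lines mark 1.5-fold, red is higher, blue is lower and grey is within the limits. In kidney 6 of 10 genes lie to the right of the upper line and Car3 to the left of the lower one; in heart Car12 alone is red, and 3 genes had too few counts.

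The 2 membrane-anchored enzymes were both higher in the CLP + MLT kidney. Car4 (ENSMUSG00000000805.18, chromosome 11 from 84957786 to 84966044), which sits on the brush border of the proximal tubule, had 1624 counts without and 1751 counts with melatonin. That is 66.2 and 114 CPM, a log2 ratio of 0.78 (0.68 to 0.88). Car15 (ENSMUSG00000090236.3, chromosome 16 from 17835276 to 17838364), a related GPI-anchored enzyme, had 186 and 211 counts, or 7.58 and 13.7 CPM. Its log2 ratio was 0.85 (0.56 to 1.15), and the overlapping Gm20518 had 0.81 (0.55 to 1.08). The interval of Car4 lay wholly beyond 1.5-fold, and that of Car15 did not. With scaling by library size alone Car4 had 0.59 (0.49 to 0.68), just past 1.5-fold with an interval that reached below it.

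Of the 3 transmembrane enzymes, 2 were higher and 1 hardly differed. Car14 (ENSMUSG00000038526.14, chromosome 3 from 95897768 to 95904691), an enzyme of tubule and muscle membranes, had 1301 and 1354 counts, or 53.0 and 87.9 CPM. Its log2 ratio was 0.73 (0.62 to 0.84), wholly beyond 1.5-fold. With scaling by library size alone it was 0.53 and within the limits. It shares 445 exon bases with Aph1a on the opposite strand, whose log2 ratio was 0.37 (0.27 to 0.48). Car9 (ENSMUSG00000028463.14, chromosome 4 from 43506966 to 43513729), known as a target of hypoxia-inducible factor, had 91 and 108 counts, or 3.71 and 7.01 CPM, a log2 ratio of 0.91 (0.50 to 1.34). An antisense gene that shares 214 exon bases with Car9, Gm12454, had 62 and 79 counts and a log2 ratio of 1.01 (0.52 to 1.53). With the counting's strand setting unknown, reads of these overlapping pairs cannot be told apart. Car12 (ENSMUSG00000032373.15, chromosome 9 from 66713686 to 66766845), a basolateral enzyme, had 2215 and 1467 counts, which came to 90.3 and 95.3 CPM and a log2 ratio of 0.08 (−0.02 to 0.17). With library size alone its ratio was −0.12, so the direction depended on the scaling.

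Promoters were looked up in RefSeq for GRCm38.p6, which held 7 of the 10 members, since Car9 is a known hypoxia target and was among the members that were higher. The letters ACGTG, a form of the core of the hypoxia response element, were searched on both strands in the 300 bases from 250 before to 50 after the start. The other form, GCGTG, was not searched. They were found in Car9, Car14 and Car4 and not in Car5a, Car5b, Car12 or Car15. All 3 with the letters were higher in the CLP + MLT kidney, and so were Car5a and Car15 of the 4 without. Of all 32851 promoters of that length, 19.6% held them. The E-box letters CACGTG, which contain ACGTG, were in none of the 7 and in 7.15% of all. The match began at position −18 in Car9, −7 in Car14 and 3 in Car4, counted from the start. The 100 bases before the start are shown for the pair whose match lies there, because the match sits close to the start in both. RefSeq's start lies inside the GENCODE gene given above, so that 60 of the 100 bases of Car9 and 6 of those of Car14 fall within that gene. Each is read on the gene's own strand, with the match, which is ACGTG on the other strand, in capitals.
Car9, chr4:43506926-43507025, plus strand: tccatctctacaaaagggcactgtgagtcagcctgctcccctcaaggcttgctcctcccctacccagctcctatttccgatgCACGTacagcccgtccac
Car14, chr3:95904686-95904785, minus strand: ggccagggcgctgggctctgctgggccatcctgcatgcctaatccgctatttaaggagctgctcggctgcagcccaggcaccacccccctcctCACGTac
A match describes these letters only, and binding of a factor there was not measured. Of 11 other hypoxia-inducible genes in kidney, 1 was higher (Ankrd37, 0.92) and 1 was lower (Ndrg1, −0.79), with a median log2 ratio of 0.03. Of these genes 6 had a log2 ratio above 0 and 5 below. They summed to 2713 CPM in CLP kidney and 1772 CPM in CLP + MLT kidney, of which Ndrg1 alone had 1669 and 963.

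The mitochondrial pair differed in opposite directions in the kidney. Car5a (ENSMUSG00000025317.7, chromosome 8 from 121916126 to 121944904) had 59 and 86 counts, or 2.41 and 5.59 CPM. Its log2 ratio of 1.21 (0.72 to 1.72) was the highest of the family, with an interval wholly beyond 1.5-fold. With scaling by library size alone it was 1.01 (0.53 to 1.52), an interval that reached below 1.5-fold. Car5b (ENSMUSG00000031373.4, chromosome X from 163976822 to 164027997), the more widely expressed of the pair, had 1373 and 664 counts, or 56.0 and 43.1 CPM. Its log2 ratio was −0.38 (−0.51 to −0.24), below 0 beyond counting error but within 1.5-fold. Per kilobase, Car5a made up 0.927% of the family's level in CLP and 1.62% in CLP + MLT, and Car5b 4.55% and 2.63%. Car5a also shares 314 exon bases with BC048644 on the opposite strand, which had 42 and 36 counts and a log2 ratio of 0.44 (−0.23 to 1.13).

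Among the cytosolic members, Car2 was nearly level and Car3 was lower. Car2 (ENSMUSG00000027562.12, chromosome 3 from 14886273 to 14900770) had 6468 and 4845 counts, or 264 and 315 CPM. Its log2 ratio of 0.26 (0.20 to 0.31) was above 0 but under 1.5-fold. Its neighbour Car3 (ENSMUSG00000027559.5, chromosome 3 from 14863512 to 14872523), an enzyme of low activity that is abundant in fat and skeletal muscle, had 108 and 31 counts, or 4.40 and 2.01 CPM. The log2 ratio of Car3 was −1.12 (−1.75 to −0.54), and it was the only member lower past the limits. Beside it, the 9 adipocyte markers summed to 265 CPM in the CLP kidney and 202 in the CLP + MLT kidney. Nearly all of this was Pnpla2 (121 and 80.3), Fabp4 (93.2 and 83.6) and Lipe (47.4 and 37.3). All 5 with enough counts had a log2 ratio under 0. Of these, 3 were lower past the limits, namely Plin1 (33 and 1 counts), Cidec (32 and 8) and Pnpla2 (2972 and 1237). Adipoq, Lep and Retn were at 0 in both kidney libraries. Of the 10 skeletal muscle markers, which summed to 6.24 and 15.7 CPM, Myh1, Myh2, Myh4 and Tnni2 were at 0 in both, and 2 were higher, Mylpf and Pvalb, of which Pvalb is also on the distal tubule list. The part of either cell type in the Car3 value was not tested.

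Car8 (ENSMUSG00000041261.9, chromosome 4 from 8143362 to 8239041), the inactive member best known from Purkinje neurons, where it binds an inositol trisphosphate receptor, was a minor transcript in kidney. It had 68 and 74 counts, or 2.77 and 4.81 CPM, with a log2 ratio of 0.79 (0.30 to 1.29). In the heart it was among the leading members. The genes Gm11799 and Gm25355, which overlap Car8, and Gm20388, which overlaps Car5a, share no exon bases with them and were at 0 in all 4 libraries.

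Each list of tubule markers had a median log2 ratio above 0 in the kidney, from 0.22 to 0.54, and the part of tubule cell makeup in the members' values was not tested. All 9 intercalated cell markers had a log2 ratio above 0, and 3 were past the limits. Their summed level was 614 CPM in CLP kidney and 878 CPM in CLP + MLT kidney. The 12 proximal tubule markers summed to 22380 and 33824 CPM, with 5 higher and 3 lower, from Slc5a12 (−3.31) to Slc7a13 (2.24). The 8 thick limb and distal markers summed to 5778 and 6121 CPM with 3 higher, and the 7 principal cell markers to 708 and 836 CPM with 2 higher. The 8 endothelial markers summed to 258 and 209 CPM, and none was past the limits. Of the 6 erythroid markers with enough counts, 2 were higher and 1 was lower (96.9 and 126 CPM), and of 6 liver markers 1 was higher and 1 lower (1302 and 919 CPM). Most of the liver sum was Cyp2e1 (1040 and 554 CPM), while Alb had 4.65 and 4.61 CPM.

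How mice vary was not measured. With edgeR's exact test and a coefficient of variation set to 0.2 by assumption, 0 of the 10 genes passed at a p-value of at most 0.01, and 3 (Car3, Car5a and Car9) were under 0.05. Scaled by library size only, the median of all kidney genes was −0.19 rather than 0.0029 and the share of called genes that were higher went from 50.2% to 25.3%. Of the members, 5 were then higher and 1 was lower, with Car14 no longer past the limits, where 5.32% of all kidney genes were higher and 15.7% lower. Car4 and Car8, both at 0.59, were then only just past 1.5-fold.

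The same comparison was made in the heart. Of the 10 genes, 7 passed the filter, and 1 of these, Car12, was higher in the CLP + MLT library. None was lower. By the same rule, 8.51% of the 15871 heart genes were higher and 10.4% were lower, 18.9% in all. The median log2 ratio of the 7 genes was 0.54, against 0.0023 for all heart genes, and 0.13 over the 4 members with a mean of 50 counts or more. As in kidney, the members were chosen with earlier results of these data known. The 3 genes left out had 2 and 7 counts (Car3), 1 and 0 counts (Car5a) and 4 and 10 counts (Car15), under the filter.

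The leading heart genes differed less than 1.5-fold. Car4, which lines capillaries and the cardiomyocyte membrane, had 3617 and 2577 counts, or 222 and 159 CPM, with a log2 ratio of −0.48 (−0.55 to −0.41). Car14, found in the membranes of heart muscle cells, had 1468 and 1198 counts, or 90.0 and 74.0 CPM, with −0.28 (−0.39 to −0.17). Car8 went the other way, with 939 and 1356 counts, or 57.6 and 83.7 CPM, and a log2 ratio of 0.54 (0.42 to 0.66). All 3 intervals excluded 0. Car8 came to lie past 1.5-fold with scaling by library size alone (0.60) or by the upper quartile (0.59). Beside these values, the cardiomyocyte markers, which summed to 35443 and 24633 CPM, had 1 higher and 4 lower of 11, and the 8 endothelial markers summed to 1066 and 1208 CPM with 1 higher and 1 lower. Their part in the values of Car4, Car14 and Car8 was not tested.

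Car12 was a minor transcript in the heart. It had 14 and 46 counts, or 0.859 and 2.84 CPM, with a log2 ratio of 1.69 (0.84 to 2.70). Car2 had 130 and 193 counts, or 7.97 and 11.9 CPM, with 0.58 (0.25 to 0.91), just under 1.5-fold. Car9 had 20 and 35 counts and 0.80 (−0.02 to 1.69), an interval that reached just below 0, while the antisense Gm12454 had 27 and 68 counts and was higher with 1.33 (0.68 to 2.04). Car5b had 20 and 22 counts and 0.14 (−0.79 to 1.10). With library size only, or with the upper quartile, Car2, Car8 and Car9 joined Car12 as higher, 4 genes in all, where 9.92% and 9.77% of all heart genes were higher. When a mean of 50 counts was required, Car12 was not among the genes compared and 0 were higher.

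Kidney tubule markers were also counted in the heart libraries. Of the 12 proximal tubule markers, which summed to 377 CPM in the CLP heart and 812 in the CLP + MLT heart, 9 were higher and 1 was lower. The principal cell markers summed to 12.8 and 35.6 CPM, and all 6 of 7 with enough counts were higher. Intercalated cell markers summed to 8.10 and 13.9 CPM, with 4 of 6 higher. The thick limb and distal markers summed to 71.5 and 103 CPM, with 2 of 7 higher. Over 33 tubule markers with at least 10 CPM in both kidney libraries, the heart level was a median of 1.80% of the kidney level in the CLP pair and 2.82% in the CLP + MLT pair. The 10th and 90th percentiles were 0.535% and 4.97%, then 1.37% and 7.18%.

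Against that range, the heart level of Car12 was 1.17% and 3.81% of its kidney level. Car5b was at 2.70% and 4.02%, Car2 at 3.73% and 4.84% and Car15 at 3.99% and 5.75%. These 4 genes lay within the percentiles of the tubule markers in both pairs. Car3, at 3.44% on 2 heart counts and 27.4% on 7, lay within them in the CLP pair only, and Car5a was at 3.15% on 1 heart count and at 0 on none. Car9 was at 40.8% and 39.3%, Car14 at 209% and 107%, Car4 at 413% and 179% and Car8 at 2563% and 2224%, all above these percentiles. The highest tubule marker, Avpr2, was at 36.2% and 40.7%, so Car9 was not above all markers in the CLP + MLT pair. Of the other markers in heart, 1 of 6 erythroid genes was higher (257 and 226 CPM), and of 6 liver genes 2 were higher and 2 lower (29.6 and 36.7 CPM). Of 3 adipocyte genes 1 was lower (2121 and 2093 CPM), and of 6 skeletal muscle genes 2 were higher and 4 lower (1091 and 390 CPM), with Myh1, Myh2 and Myh4 at 0. Most of the adipocyte sum was Fabp4 (1611 and 1774 CPM), while Adipoq had 12 and 1 counts. Most of the skeletal muscle sum was Ckm (1032 and 363 CPM), so these sums are no measure of those cell types in heart. Whether kidney RNA contributed to the heart values was not tested.

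**Figure D4:**
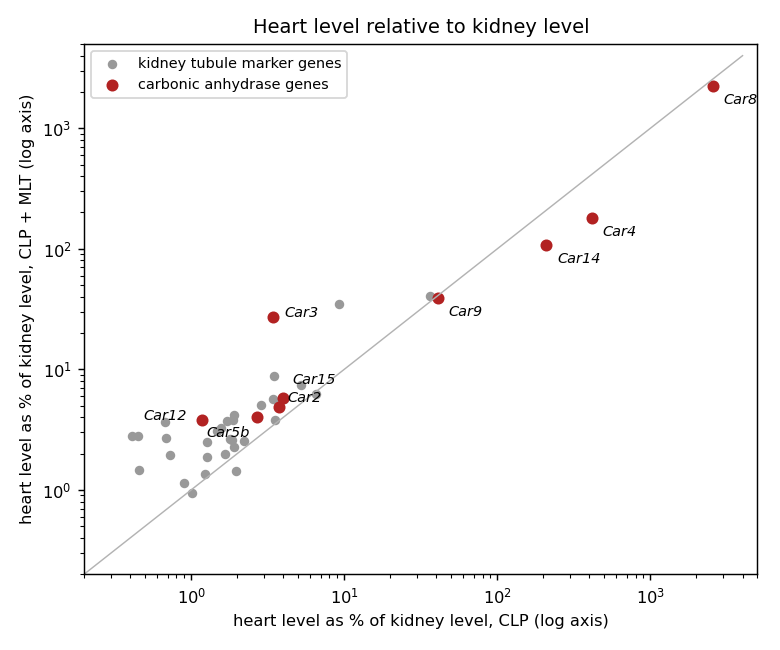
Heart level as a percentage of kidney level in the CLP pair (x) and the CLP + MLT pair (y), both on log axes, for members (red) and kidney tubule markers (grey); the line marks equal percentages, and genes at 0 in a heart library are not drawn. Car12, Car5b, Car2 and Car15 lie among the markers, while Car9, Car14, Car4 and Car8 lie at 39.3% or above in both pairs. The highest marker, Avpr2, lies close to Car9, at 36.2% and 40.7%.

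The genes with the most similar pattern over the 4 libraries were sought for the member with the largest difference in each tissue. Likeness was the Euclidean distance between centred log2 values of CPM plus 0.5, over genes averaging 100 counts or more. For Car12 these were Ugt3a1 at a distance of 0.110 (1677 and 1065 counts in kidney, 8 and 35 in heart), Hnf4a at 0.171 and Aldh8a1 at 0.178, out of 11796 genes. For Car5a they were Rgs11 at 0.194, Ccdc107 at 0.256 and Hyi at 0.313, out of 11797 genes. The heart values of Car5a in this distance rest on 1 and 0 counts, or 0.0676 and 0 CPM. The added 0.5 is larger than these values, so it narrows the gap between kidney and heart in the profile of Car5a. Rgs11, with 639 and 979 counts in kidney and 80 and 59 in heart, is near that narrowed profile only. With only 4 libraries many genes can share a pattern.

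The other carbonic anhydrase genes gave a mixed picture. Of Car1, Car6, Car7, Car10, Car11 and Car13, the genes Car1, Car6 and Car10 were at 0 in all 4 libraries. Car13, a cytosolic enzyme next to Car1, Car2 and Car3 on chromosome 3, was lower in the CLP + MLT kidney with 78 and 29 counts and a log2 ratio of −0.75 (−1.42 to −0.12). Car7 had 69 and 28 counts there and −0.62, with an interval that reached above 0, and Car11 had 65 and 52 counts. In heart, Car7 had 131 and 143 counts and Car11 70 and 52, and neither was past the limits.

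Transporters that work with these enzymes were counted as lists. Of 14 bicarbonate transporter genes, 12 had enough counts in kidney, with 3 higher and 0 lower and a median log2 ratio of 0.40. The higher ones were Slc4a3 (0.68), Slc4a1 (0.63), the anion exchanger of acid-secreting intercalated cells and of red cells, and Slc26a7 (0.63). Slc4a1 is on the intercalated and erythroid marker lists as well. In heart 2 of 9 were higher, Slc4a11 (1.63) and Slc4a1 (1.53), both on fewer than 50 counts per library. Of the 13 proton and lactate exporters in kidney, 1 was lower and 0 were higher. It was Slc16a1, a lactate and ketone body carrier, with 1053 and 182 counts and a log2 ratio of −1.86 (−2.10 to −1.63). In heart Slc16a7 was higher (2.02) and Slc16a3 lower (−1.04) of 10. Slc16a7 had 14 and 58 counts in heart against 1968 and 1432 in kidney. Slc4a11 had 13 and 41 against 381 and 280, and Slc4a1 had 7 and 21 against 696 and 675. The part of kidney RNA in these higher heart values was not tested.

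Enzymes and carriers that make or use bicarbonate and ammonia were counted in the same way. In kidney, of 11 genes of ammonia and glutamine handling, 4 were lower, namely the amino acid carriers Slc6a19 (−1.55) and Slc7a8 (−0.93), Gls2 (−0.97) and glutamate dehydrogenase Glud1 (−0.72). The ammonia channel gene Rhbg was higher (0.76), and the median was −0.38. Of 10 carboxylase and urea cycle genes, Pcx, which encodes the bicarbonate-using pyruvate carboxylase of mitochondria, was lower with 13798 and 5497 counts and a log2 ratio of −0.66 (−0.70 to −0.61), and the median was −0.10. In heart, Rhcg (1.12) and Pck1 (0.82) were higher and Slc7a8 (−0.91) lower of 10 ammonia and glutamine genes. Of 10 carboxylase and urea cycle genes, Ass1 (0.59) was higher and Pcca (−0.97) lower. Rhcg had 41 and 89 counts in heart against 3910 and 3523 in kidney, and Pck1 801 and 1408 against 76597 and 33584. Ass1 had 164 and 245 counts in heart against 15081 and 7298 in kidney. The part of kidney RNA in these heart values was not tested. Ldha (−0.68) was the only hypoxia-inducible gene past the limits in heart.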

How the data were processed

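Poly-A RNA libraries had been made with a NEBNext Ultra kit, and reads had been trimmed with trim-galore and aligned to mm10 by the authors. They deposited raw read counts per gene, 1 file a library. The submitters' processing notes name HISAT2 2.1.0 and HTSeq; strand setting and annotation, not given in the sources used here, are unknown. The 5 totals per file that name no gene were left out. Reads on no gene made up 29.6% to 37.7% of a file, and reads not uniquely aligned 23.6% to 38.6%. Only 27.2% to 34.5% were counted on genes. Of the reads either on a gene or on none, 52.1% to 52.6% were on none, and the part of the strand setting in this share was not tested.

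Factors were computed in R 4.3.3 with edgeR 4.0.16 (TMM) from genes averaging 10 counts or more, and DESeq2 1.42.0 gave alternative size factors. Ratios used a prior count of 0.5. Intervals, ratios and figures came from Python 3.11.15 with numpy 2.4.6, pandas 2.3.3, scipy 1.17.1 and matplotlib 3.10.9. The intervals cover counting error only and take reads as independent. Reads copied by PCR are not, so the intervals can be too narrow even for counting error. The study's methods state edgeR with a 1.5-fold limit and a p-value of at most 0.01. With 1 library per group no dispersion could be estimated, so edgeR's exact test was run only with assumed variation. The rule used here for higher and lower has no p-value and is therefore not the study's. The procedure was tested on simulated counts. Symbols came for 54349 of 55401 identifiers, and exon lengths and positions from GENCODE M21 on GRCm38, the build of mm10.

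Members and gene lists were chosen with earlier results of these data known, and the promoter letters after the values were seen. Lists were written from general knowledge. Named are all members, genes overlapping them, genes past the limits in the lists of enzymes, transporters and hypoxia targets (up to 4 per list and tissue), the 3 nearest profiles of the member with the largest difference per tissue, and some genes chosen after their values were seen. Marker lists are given by counts and sums. Alternatives were other scalings, filters, prior count, fold limits and assumed variation between mice.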

Additional observations from a re-analysis of the deposited data

Results flagged for a closer look

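Car4 and Car14 were on opposite sides of 0 in the tissues, each with a counting interval clear of 0. Car4 had a log2 ratio of 0.78 in kidney and −0.48 in heart, so heart minus kidney was −1.26. Car14 had 0.73 in kidney and −0.28 in heart, so heart minus kidney was −1.01. With 1 library per group this difference between tissues was not tested, and both heart values were within 1.5-fold.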

How the results depend on the processing

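No paired analysis was possible because each group has 1 library. Of the members, the ratio of Car12 in kidney (0.08) changed sign with library size only (−0.12), without being past the limits either way; no member past the limits changed direction under the alternatives run. In kidney, a limit of 2-fold left 1 member higher (Car5a), and all genes counted were 644 higher and 724 lower. With a variation of 0.2 assumed between animals (edgeR's exact test), 0 members were higher and 0 lower (3 at a p-value under 0.05), and 289 and 330 of all genes. With 0.4 these were 0 and 0 members (0 under 0.05), and 23 and 67 of all genes. Scaling by library size only gave 901 higher and 2661 lower of all genes and moved their median to −0.19. Requiring a mean of 50 counts gave 1002 and 1011. In heart, 4 members were higher with library size only (1575 of all genes higher and 1409 lower), 4 with the upper quartile (1550 and 1439), 2 by fold alone (10.9% of all heart genes higher and 12.6% lower), 0 with a mean of at least 50 counts (member median 0.13) and 0 with an assumed variation of 0.4 (0 under 0.05); with 0.2 Car12 passed. Of all heart genes, 727 were higher with a mean of at least 50 counts, 672 higher and 769 lower at 2-fold, 292 and 370 with 0.2, and 42 and 21 with 0.4; library size only moved their median to 0.06, and the share of calls that were higher from 45.1% to 52.8%. Fewer genes compared, a stricter limit or an added variation lowers these counts by construction. DESeq2 size factors, a prior count of 5, no filter and leaving out mitochondrial and haemoglobin genes kept every count of members. The unshared exon length of Car15, which gave 0.414 and 1.08 CPM per kilobase in heart, was chosen after seeing the data. Depth limits Car3, Car5a and Car15 in heart.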
